A study of Mus musculus with 2 samples.

Results

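Aopep, Etl4, Dpy19l3, Ksr2, Mogat1, Fry and Gorab are 7 protein-coding mouse genes that carry some of the tallest peaks found inside any gene of the muscle stem cell GFP ChIP-seq list. A peak was counted as inside a gene when its summit fell within the annotated GRCm38 span, and by that rule the 7 genes held 14 of the 2977 peaks of the list and 14 of the 1473 that lay inside a protein-coding gene. The ChIP library came from muscle stem cells sorted from untreated C57BL/6 mice with the genotype Pax7-YFP KI (KI, knock-in), precipitated with a GFP antibody, and the input library from cells of the same strain, genotype and sort. There was 1 library of each kind, with 10622111 tags in the ChIP and 20429667 in the input once filtered, so replicate error is unknown and nothing was tested. The labels give neither the age nor the number of the mice, nor how YFP is joined to Pax7, and ChIP from cells without YFP was not analysed here. A list of peaks holds no expression values, so the labelled cell type could not be checked against its markers.

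PAX7 is the paired box transcription factor that marks satellite cells, the resident stem cells of skeletal muscle. Such factors bind DNA through a paired domain and a homeodomain, and much of their binding in muscle cells is known to lie in introns and between genes, far from start sites, where enhancers act on genes near and far. A peak inside a gene therefore does not name the gene that it acts on. The host genes described here have unrelated products: a zinc aminopeptidase (Aopep), the sickle tail protein of vertebral disc development (Etl4), an enzyme that attaches mannose to tryptophan residues (Dpy19l3), a scaffold of the Raf, MEK and ERK kinases (Ksr2), an acyltransferase that makes diacylglycerol (Mogat1), a large binding partner of the NDR kinases (Fry) and a golgin of the trans-Golgi (Gorab).

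The only microRNA genes annotated inside the 7 hosts lay in Aopep: Mir23b, Mir27b and Mir24-1 on the strand of the host and Mir3074-1 on the other. Mature forms are shown because miR-27b is known to repress Pax3, the close relative of Pax7, in muscle stem cells. They come from RefSeq (GRCm38.p6), 5′ to 3′, with the seed (bases 2 to 8) in capitals, and no seed of the 3 is shared. For Mir23b only the 5p form was at hand, so its arm differs from the others shown.
miR-23b-5p: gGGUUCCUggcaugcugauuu
miR-27b-3p: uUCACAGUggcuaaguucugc
miR-24-3p: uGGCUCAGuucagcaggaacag

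The genes were selected on the heights of these same peaks in the same libraries, so pileup (how many ChIP fragments cover the summit), fold enrichment (pileup + 1 over the scaled input background + 1) and width are given here as descriptions. The strongest peak of each host had a pileup from 32 to 53, against a median of 15 over all peaks, and a fold from 16.7 to 27.3, against a median of 7.35. All 7 reached 15-fold, which 1.48% of all peaks and 1.43% of those inside protein-coding genes did. The choice does not follow a single ranking. Ordered by fold, the hosts filled places 1 to 5, 7 and 11 among intragenic peaks. Adamts2, which encodes a procollagen protease, tied with Mogat1 at 19.7-fold and is no member. Rfx3 (17.7-fold) and Deptor (17.4-fold) also stood above Gorab (16.7-fold), as did Zfp408 (18.2-fold), whose summit was 37 bp from a gene end. Just below Gorab came Pdpn and Auts2, both at 16.2-fold.

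By pileup alone, 13 intragenic peaks outside the hosts were at least as tall as the one in Gorab. In 6 of them the fold was low, from 2.89 to 6.78, and the local input background high, from 4.16 to 27.0 fragments. They included peaks in Cdk8 (pileup 90, fold 3.98), Lars2 (pileup 80, fold 2.89), Zc3h7a (pileup 66, fold 3.80) and Camk1d (pileup 54, fold 3.66). The strongest host peaks had low local backgrounds, from 0.977 to 1.25 fragments. In 5 of the 7 this was the floor that the caller sets from the whole library (0.977 fragments), a level found at 44.1% of all peaks. Among other peaks of 15-fold or more it was found at 9 of 14 in protein-coding genes and 19 of 23 outside them. Dpy19l3 stood at 1.04 and Fry at 1.25, the highest of the 7.

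**Figure D1:**
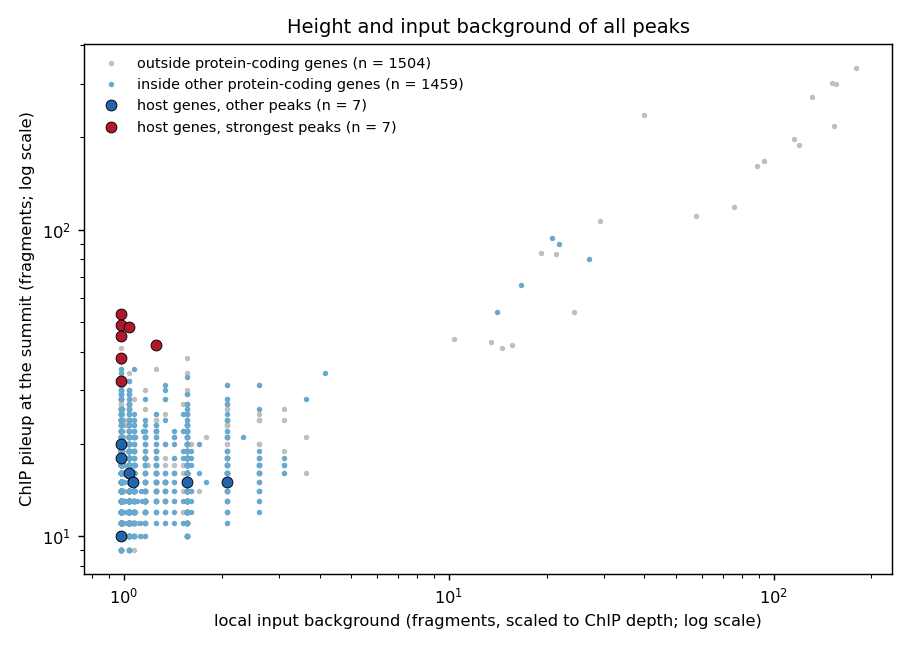
ChIP pileup at the summit against the local input background, both in fragments on log axes, for all 2977 peaks. The strongest peaks of the 7 hosts (red) sit at the left edge, between 0.977 and 1.25 fragments of background, while the tallest peaks of the whole list lie at the upper right with high background.

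Aopep held 5 peaks, the most of the 7. The gene spans chr13:62964893-63326096 on the plus strand, 361.2 kb, and its product removes single amino acids from the N-terminus of peptides. From the start side onward the peaks had pileups of 10, 18, 53, 20 and 15 fragments. Their folds in the same order were 5.56, 9.61, 27.3, 10.6 and 6.25. The third, at chr13:63113116-63113599, was the peak with the highest fold of the whole list. Its summit lay 148.4 kb from the start and 212.8 kb from the far end of the span, so it was far from either. The 95% Poisson interval of its pileup, which covers counting error only, was 39.7 to 69.3 fragments. The strongest peak accounted for 45.7% of the summed pileup of the gene, the lowest share among the 4 hosts with more than 1 peak. Dpy19l3, Mogat1 and Fry held only 2 peaks each, so the shares are not like for like.

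The fourth peak of Aopep, chr13:63113654-63114033, began 54 bp after the end of the third, with the summits 636 bp apart. The caller's fragment length was 172 bp, and whether both peaks belong to a single enriched region was not tested. The weakest of the 5, with 10 fragments, stood at place 2814 of 2977 by pileup, ties included. The last one lay at 66.7% of the span and was the only peak of Aopep with a background above the floor (1.56 fragments). None of the 5 summits fell in another annotated gene. The long noncoding RNA genes Gm46422 and Gm30409 flanked the strongest summit at 18.5 and 19.1 kb.

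The microRNA genes were farther off, near the other end of the host. Mir23b lay 187.2 kb, Mir27b 187.4 kb and Mir24-1 187.9 kb from the strongest Aopep summit, and no summit of the list fell inside any of them. The coding gene Fancc, whose product acts in DNA crosslink repair, overlaps the end of the Aopep span. It held a peak of 16 fragments, 8.20-fold, whose summit was 24421 bp beyond Aopep, and a second of 18 fragments, 9.61-fold, at 105150 bp. The nearer was the single peak within 50 kb outside any of the 7 hosts.

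Etl4 was the longest host and had 1 peak. Its annotated span, chr2:19910207-20810535, covers 900.3 kb, and 76 protein-coding genes are longer. The peak at chr2:20642690-20643194 had a pileup of 49 (36.3 to 64.8) and a fold of 25.3, second only to Aopep in the list. It lay at 81.4% of the span, 167.6 kb from its end. Etl4 has 24 RefSeq transcripts in the table, 18 of them predicted, and the 3 start sites listed for it lie well inside the span. Counted from the earliest of these, the summit was at 67.8% of the gene, and it was 123.4 kb past the nearest. No other summit of the list was within 200 kb.

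Dpy19l3 had its peaks close to the start. The gene lies on the minus strand at chr7:35685500-35754460 (69.0 kb), and its product adds mannose to tryptophans of secreted proteins such as those with thrombospondin repeats. The stronger peak, chr7:35747500-35747937, had a pileup of 48 (35.4 to 63.6) and a fold of 24.0. The weaker, chr7:35748048-35748371, had a pileup of 16 (9.15 to 26.0) and a fold of 8.33. The summits were 435 bp apart with 110 bp between the peaks, 6.7 and 6.3 kb from the listed start. As in Aopep, a weaker peak thus adjoined the strongest one.

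Another summit within 1000 bp is not common in the list: it was found at 5.64% of all peaks and at 4 of the 14 host peaks, which are the pairs in Aopep and Dpy19l3. Among the 44 peaks of 15-fold or more, it was found at 2 of the 7 in the hosts, 0 of the 14 in other protein-coding genes and 0 of the 23 outside them. Another summit within 50 kb was present at 4 of the 7, 3 of the 14 and 7 of the 23. The share over all peaks is not given for 50 kb. The 4 include Aopep and Dpy19l3, already counted within 1000 bp, and Fry, whose summits were 48474 bp apart. These counts describe the list and were not tested.

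Ksr2 and Gorab, like Etl4, had a lone peak. Ksr2, a scaffold protein that brings Raf, MEK and ERK together and is known for its part in energy balance, spans chr5:117414002-117767996 (354.0 kb, plus strand). Its peak at chr5:117493565-117493903 had a pileup of 45 (32.8 to 60.2) and a fold of 23.3. The summit was 79.8 kb past the start, at 22.5% of the span, and no other summit lay within 200 kb. Gorab is the shortest host at 18.8 kb (chr1:163384903-163403669, minus strand), and its product is a golgin of the trans-Golgi. Its peak at chr1:163391370-163391748 had a pileup of 32 (21.9 to 45.2), the lowest of the 7 strongest peaks. The summit was 12.1 kb past the start and 6.6 kb from the end, so that no position in this gene could be far from an end.

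Further peaks lay around Gorab, some of them in its neighbour. Prrx1, which encodes a homeodomain factor of limb and connective tissue mesenchyme, lies 69757 bp away and held 2 summits within its span. The nearer, 76150 bp from Gorab, had 16 fragments (8.60-fold), and the other, at 99435 bp, had 20 (10.6-fold). Within 200 kb of the Gorab summit 5 other summits were listed, all outside Gorab, and the highest fold among them, 12.6, was at a summit outside Prrx1.

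Mogat1 had 2 peaks in the 5′ part of its span, chr1:78511060-78606964 (95.9 kb, plus strand). The enzyme joins a fatty acid to monoacylglycerol, a step on the way to triglyceride. The peak at chr1:78532405-78532867 had a pileup of 38 (26.9 to 52.2) and a fold of 19.7, 21.5 kb past the start. The second peak at chr1:78538459-78538638 had 15 fragments (8.40 to 24.7) and a fold of 5.20, 5996 bp farther on. That weaker peak had the highest local background of the 14, 2.08 fragments, and its fold was 26.3% of that of its neighbour, while its pileup equalled those of weaker peaks in Aopep and Fry. Pax3, the paired box factor of embryonic muscle progenitors, lies on the same chromosome 335.5 kb from the strongest Mogat1 summit and held no summit itself. The fatty acid activating gene Acsl3, at 125.2 kb on the other side, held 1 with a fold of 7.59.

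Fry had 2 peaks that were inside its span but upstream of its listed start. The span is chr5:150118618-150497753 (379.1 kb, plus strand), and 10 of its 11 RefSeq transcripts are predicted. The stronger peak, chr5:150207840-150208406, had a pileup of 42 (30.3 to 56.8) and a fold of 19.1. The weaker, chr5:150159598-150159804, had a pileup of 15 (8.40 to 24.7) and a fold of 7.75. Measured from the 5′ end of the span, the summits were at 23.6% and 10.8%. Measured from the start site listed for Fry, they lay 51.8 and 100.2 kb before it. The table does not say which transcripts begin before these peaks, so Fry counts as their host by its span alone.

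**Figure D2:**
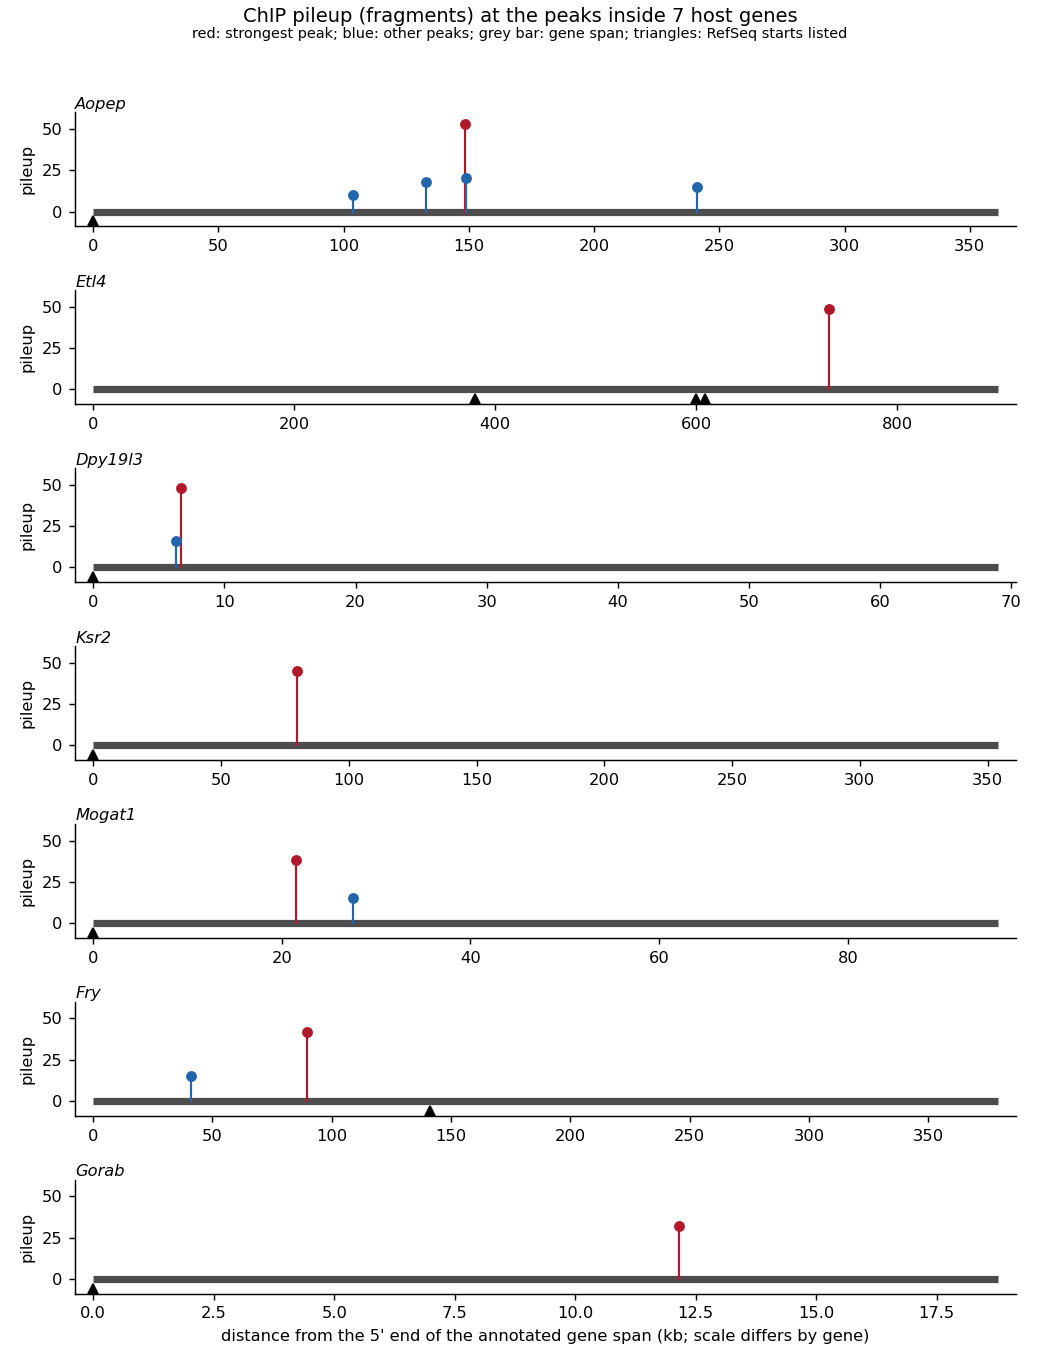
Pileup in fragments at each of the 14 peaks against the distance in kb from the 5′ end of the gene span, 1 panel per host, with listed RefSeq starts as triangles. The strongest peak of each gene (red) reaches 32 to 53 fragments and the others (blue) 10 to 20, and both Fry peaks stand before the listed start.

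The order of the 7 hosts by fold was not tested, and the intervals of hosts next to each other in it overlapped widely. Folds ran from 27.3 (20.6 to 35.6) in Aopep over 25.3 (18.8 to 33.3) in Etl4, 24.0 (17.8 to 31.7) in Dpy19l3 and 23.3 (17.1 to 31.0) in Ksr2. Mogat1 followed with 19.7 (14.1 to 26.9), Fry with 19.1 (13.9 to 25.7) and Gorab with 16.7 (11.6 to 23.4). The intervals of Aopep and Gorab overlapped too, by less, and overlap alone does not show that folds are equal. Fry had more fragments than Mogat1, 42 against 38, but a lower fold because its background was higher, and the pair changes places when ordered by pileup. In the 4 hosts with several peaks, the others had 20.4 to 40.6% of the fold of the strongest, a gap that the choice of the genes by their tallest peak favours.

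**Figure D3:**
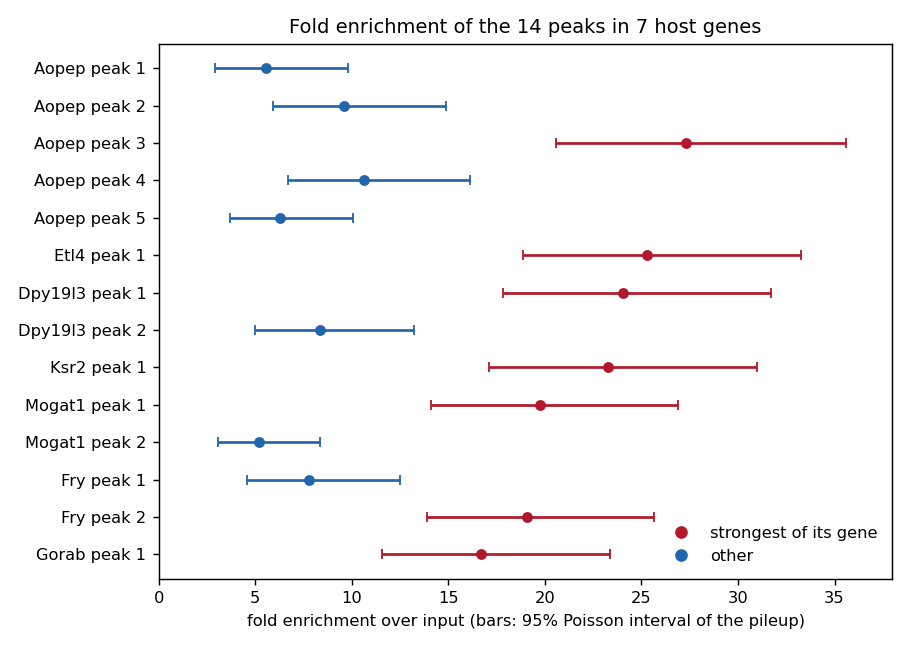
Fold enrichment over input of each of the 14 peaks, with 95% Poisson intervals of the pileup as bars, in gene order from the top. The strongest peaks (red) lie between 16.7 and 27.3 with intervals that all overlap, and the other peaks (blue) lie between 5.20 and 10.6.

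The weaker peaks of the hosts resembled an ordinary peak of the list. Their pileups were 10 to 20 (median 15, the same as over all peaks), and their folds 5.20 to 10.6 (median 7.75). In all, 8 of the 14 host peaks reached 10-fold, against 14.4% of the list. The 8 are the 7 strongest, which the choice of genes put there, and the fourth Aopep peak.

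Strongest peaks were also wide. Their widths were 484 bp in Aopep, 505 in Etl4, 438 in Dpy19l3, 339 in Ksr2, 463 in Mogat1, 567 in Fry and 379 in Gorab. The median over all peaks was 230 bp and the upper quartile 296 bp, so each of the 7 was above that quartile. Width and height were related in the list (Spearman rho = 0.50 over 2977 peaks of a single pair of libraries, given as a description), so width is not independent of the choice. At 15-fold or more the median widths were 463 bp in the hosts, 388 bp in other protein-coding genes and 375 bp outside them, with overlapping ranges of 339 to 567, 301 to 663 and 257 to 766 bp. Ksr2, with the fourth highest fold, was the narrowest of the 7, and Fry, with the sixth, the widest. The weaker peaks of the hosts were 180 to 380 bp wide.

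**Figure D4:**
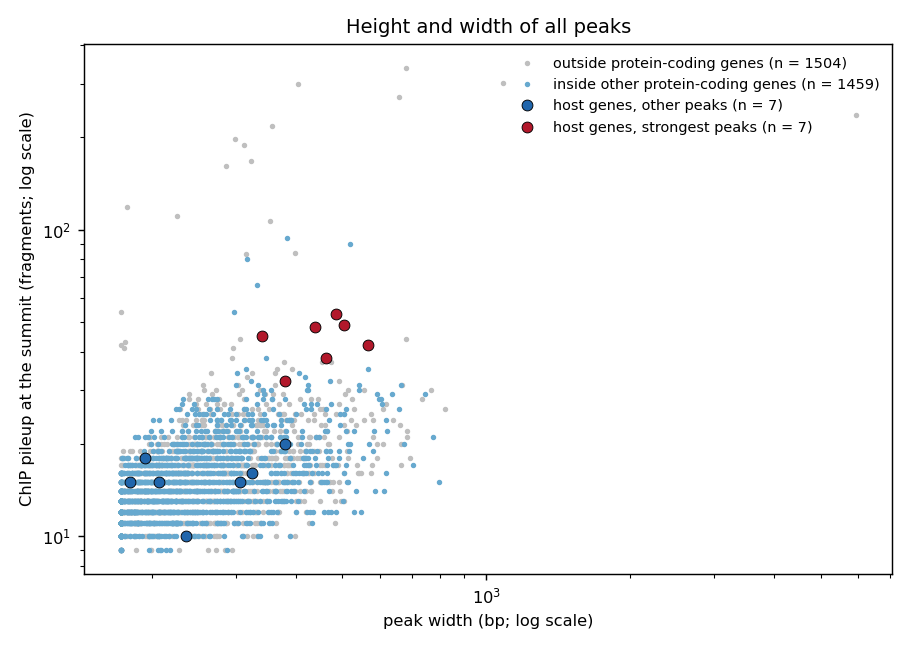
ChIP pileup at the summit (fragments) against peak width (bp), both on log axes, for all 2977 peaks. The strongest host peaks (red) lie between 339 and 567 bp and reach 32 to 53 fragments, and the weaker ones (blue) lie among the bulk of the list.

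None of the 14 host summits was within 1000 bp of a listed start, and 0 of the 9 start windows listed for the hosts (250 bp before to 50 bp after a RefSeq start) was touched by a peak. The nearest were the Dpy19l3 peaks. The same shares over all peaks and all start windows are not given, so these counts do not set the hosts apart. Among peaks of 15-fold or more, 0 of the 7 in the hosts had a summit within 1000 bp of a gene end. Of those in other protein-coding genes 3 of 14 did, and of those outside such genes 8 of 23. The hosts were chosen for summits inside genes, which favours a low count near starts and ends. Along the span, 5 of the 7 strongest summits and 11 of all 14 lay before the midpoint, as did 59% of the 863 placements of summits over 1000 bp from both ends of a protein-coding gene of known strand. The strongest summits ranged from 9.7% (Dpy19l3) to 81.4% (Etl4) of the span. Exons and introns were not analysed here.

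The hosts were long genes for the most part. Their spans were 18.8 to 900.3 kb, against a median of 17.2 kb over 21774 protein-coding genes and of 64.4 kb over the 1195 (5.49%) with a summit inside. The share of genes with a summit was higher in each longer class, from 1.5% below 10 kb to 25.9% at 300 kb and above, the class of Aopep, Etl4, Ksr2 and Fry. Of the 144 genes of that class with a summit, 47.9% had 2 or more, and so did 2 of these 4. In the class of 50 to 100 kb 15% of 213 had 2 or more, and so did both Dpy19l3 and Mogat1. Aopep was among the 10 protein-coding genes with 5 or more summits. Its highest fold was above those of the other 9, which ran up to 16.2 (Auts2). The choice of Aopep by its tallest peak favours this.

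Relatives of the hosts by family or pathway were looked up in the same way. Of 70 related genes, 7 had a summit inside (10%, against 5.49% of all protein-coding genes), with highest folds from 5.08 to 9.61. Counting only peaks whose −log10 q reached the list's median, the shares were 2.86% and 2.97%, and with the whole peak inside the span 5.71% and 4.75%. With any overlap of 1 bp they were 12.9% and 6.62%, and with spans widened by 10 kb 20% and 10.9%. With the tallest 1% of peaks left out they were 10% and 5.46%. The lists were chosen with earlier results of these data known and are not matched on length. The other 9 M1 aminopeptidases had 1, Enpep, at 6.86-fold. The other 17 genes of the Ksr and Raf-MEK-ERK list had 1, the small GTPase gene Nras at 7.05-fold. Among 13 other genes of glyceride synthesis and breakdown, Dgat1, the enzyme that completes triglyceride, had a peak of 7.08-fold with its summit 1 bp from a gene end. The 3 other Dpy19 genes, the Etl4 relative Srcin1 and the 14 other genes of the golgin list had 0.

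In the list of Fry partners and Hippo pathway genes, 4 of 13 had a summit inside (30.8%, against 5.49% of all protein-coding genes). This list had the highest share of those looked up, which was not tested and is given only for summits inside the span. It holds the NDR, LATS and MST kinases, their MOB adaptors and the growth regulators Yap1 and Wwtr1, which LATS kinases restrain. Mob1a, an activator of the LATS and NDR kinases, was highest at 9.61-fold (5.90 to 14.9), followed by Wwtr1 at 7.59, the kinase gene Stk3 at 6.07 and Yap1 at 5.08. In Mob1a and Stk3 the summits were 11 and 69 bp from a gene end, and in Yap1 and Wwtr1 1117 and 1704 bp. The pileups of these peaks were 18 in Mob1a, 14 in Wwtr1, 11 in Stk3 and 12 in Yap1, against a median of 15 over all peaks. Unlike the Fry peaks, 1 of these covered a whole listed start window, that of Mob1a. A further peak of 8.09-fold covered the start windows of Wwtr1 with its summit outside the span, and peaks also touched those of the ERK inhibitor gene Spred1 (7.08-fold) and the aminopeptidase gene Lnpep (5.39-fold). For the golgin list, a peak of 13.2-fold touched the start window of Golga2, a cis-Golgi matrix golgin, but its summit was 179 bp before the listed start and so outside the gene. The share of all listed start windows touched by a peak is not given, so these touched windows have no rate beside them.

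The 250 bases before the starts of Golga2 (chr2:32288076-32288325) and Mob1a (chr6:83325789-83326038), both on the plus strand and from RefSeq (GRCm38.p6), are shown. Peaks covered 236 and 250 bp of them. They are examples only, since peaks also touched the start windows of Wwtr1, Spred1 and Lnpep, whose sequences are not shown. Capitals mark matches, on either strand, to TAAT (the homeodomain core) or GTCACGC (the core of many paired-domain sites).
Golga2: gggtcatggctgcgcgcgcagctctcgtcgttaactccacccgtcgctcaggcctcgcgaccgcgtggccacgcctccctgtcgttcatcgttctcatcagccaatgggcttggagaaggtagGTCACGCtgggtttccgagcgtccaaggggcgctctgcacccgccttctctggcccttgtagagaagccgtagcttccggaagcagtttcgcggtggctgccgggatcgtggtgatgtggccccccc
Mob1a: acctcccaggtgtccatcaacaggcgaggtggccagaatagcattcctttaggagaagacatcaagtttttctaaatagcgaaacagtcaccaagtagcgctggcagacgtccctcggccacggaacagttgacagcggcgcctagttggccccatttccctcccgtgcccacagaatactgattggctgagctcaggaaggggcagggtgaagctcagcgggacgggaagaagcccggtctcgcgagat
Neither window held TAAT, which was found in 54.9% of 32851 such windows of RefSeq starts. GTCACGC was found once in the Golga2 window and not in that of Mob1a, and 1.78% of all windows held it. This motif was added after the windows had been seen. The sequences under the host peaks themselves were not used here.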

How the data were processed

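The authors' file lists narrow peaks from 1 ChIP library called against 1 input library, with no pooling. MACS 2.1.1.20160309 was the caller (limit of q 0.01), per the file headers. Build GRCm38 and the tools bcl2fastq 2.16, HISAT2 and MACS2 2.1.1 are named per the submitters' processing notes, without role or order. Per the file headers, at most 1 tag per position was kept and fragments were taken as 172 bp. The factor for scaling the input to the ChIP library, 0.5199, was computed here from the filtered tag counts in the headers. Deposited pileups are a signal, the coverage in ChIP fragments at the summit. Deposited folds are ratios of pileup to local background, each with 1 added. The −log10 of p-values and q-values in the deposited list rests on a Poisson test by the caller.

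From these values, the local background was recovered from fold and pileup, and exact 95% Poisson intervals were computed for each pileup (Python 3.11.15, scipy 1.17.1) and carried to the fold with the background held fixed. They cover counting error only. Gene spans came from RefSeq (GRCm38.p6), where 113 protein-coding genes on scaffolds or patches were left out. Strand and starts came from the RefSeq start windows, with all 7 hosts matched. Assignment was checked on simulated peaks. The host genes and gene lists were chosen with earlier results of these data known. The text names the 7 hosts with every peak, up to 4 genes per list by fold, the intragenic peaks next to the hosts in order, and neighbours looked up by name. Golga2, Spred1, Lnpep, genes with tall peaks over high background and Auts2 were named after their values were seen. No test was run, since there was 1 library per group. Alternatives were a stricter q-value, other rules for a peak inside a gene, wider spans, peaks of highest pileup left out, and other measures of strength.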

Additional observations from a re-analysis of the deposited data

How the results depend on the processing

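Depth limits these values: a median peak rested on 15 fragments and the tallest host peak on 53, in 1 library without a replicate. Of the 14 host peaks, 11 had a −log10 q at or above the list's median, with 3 left in Aopep and 1 in Mogat1, and the highest fold of each host stayed as it was. With that limit 646 protein-coding genes (2.97%) and 2 of the 70 related genes (2.86%) had a summit inside, against 1195 (5.49%) and 7 (10%). When the whole peak had to lie within the span, all 14 host peaks stayed, and 1035 protein-coding genes (4.75%) and 4 related genes (5.71%) were left. With any overlap of 1 bp the host peaks were again 14. Spans widened by 10 kb gave 2374 protein-coding genes (10.9%) and 14 related genes (20%), and again 14 host peaks. With the tallest 1% of peaks left out (30 peaks, 5 of them the strongest in Aopep, Etl4, Dpy19l3, Ksr2 and Fry), 9 host peaks were left and Etl4 and Ksr2 had 0, by construction. The highest folds were then 10.6 in Aopep, 8.33 in Dpy19l3 and 7.75 in Fry. Ordered by pileup or −log10 q, Fry took place 5 and Mogat1 place 6, the reverse of the order by fold. No paired analysis was possible because each group had 1 library and no test was run.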
